A study of Homo sapiens with 4 samples.

Results

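The pyruvate dehydrogenase complex, its kinases and its phosphatases were examined in SW620 cells, a colorectal cancer line grown from a lymph node metastasis, with and without overexpression of GAP43, a protein best known from neuronal growth cones. The 10 genes were taken by name from the 33845 genes of the deposited table: PDP1, PDP2 and PDPR (phosphatase), PDK1, PDK2, PDK3 and PDK4 (kinases), and PDHA1, PDHB and DLAT (complex). They were chosen by a measured value, the rise of PDP1, which was among the largest in this same contrast, so that difference is described here with no test. PDK4 also stood in the study's own list of changed genes, which was known when the set was drawn up. The 2 GAP43 libraries came from SW620 cells carrying a stable Flag-GAP43 plasmid and the 2 control libraries from SW620 cells carrying a stable control plasmid, all at passages 12 to 15. The GAP43 plasmid confers neomycin resistance. The sources used here do not say whether either line was 1 clone or a pool, nor whether the libraries of a group came from separate cultures, so a p-value here measures only how far these samples spread, and that spread may be technical.

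In mitochondria the complex turns pyruvate, the end product of glycolysis, into acetyl-CoA, the fuel of the tricarboxylic acid cycle. PDHA1 and PDHB form its first enzyme (E1, alpha and beta chain), DLAT is the second (E2) and DLD the third (E3). The kinases PDK1 to PDK4 switch the complex off by phosphorylating serines of PDHA1, and the phosphatases PDP1 and PDP2 switch it on again, with PDPR as the regulatory partner of PDP1. Many tumor cells send pyruvate to lactate instead, and the kinases are known for their part in that choice.

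Each level is given in FPKM, fragments per kilobase of gene and per unit of sequencing as the authors computed it, so levels of different genes can be set side by side per length. The table gave back 21883137 and 17473071 fragments for GAP43 cells, against 21296930 and 20843857 for control cells. The transfected gene, GAP43, was read at 16.3 and 9.89 FPKM in GAP43 cells, against 4.40 and 4.14 FPKM in control cells. GAP43 replicate 2 stood apart from the rest, with Pearson correlations across genes of at most 0.952 with any other library, whereas each of the others reached at least 0.980 with another. Mitochondrially encoded genes held 4.93% and 6.78% of all fragments in GAP43 cells, against 4.25% and 3.68% in control cells. Of 12 markers of colorectal epithelium 8 averaged 1 FPKM or more, with summed levels of 1811 and 1745 FPKM in GAP43 cells and 1724 and 2423 FPKM in control cells. KRT20, CDX1, CEACAM5 and GPA33, epithelial markers too, stayed below that level. The markers of fibroblasts, leukocytes and endothelium summed to 0.645 to 9.67 FPKM a list, with COL3A1 and KDR listed at 0 in every library. Most of the fibroblast sum was LUM, with 6.42 and 5.77 FPKM in GAP43 cells, against 5.43 and 9.07 FPKM in control cells. Most of the leukocyte sum was LYZ, with 4.65 and 2.85 FPKM in GAP43 cells, against 3.71 and 3.81 FPKM in control cells. The other markers read from these lists averaged below 1 FPKM. Across the 13507 genes that averaged 1 FPKM or more, limma on log2(FPKM + 1) called 0 genes (0%) at a Benjamini-Hochberg adjusted p under 0.05. GAP43 itself, overexpressed by design, missed that threshold, with a log2 fold change of 1.38 (limma, unadjusted p = 0.00117, adjusted p = 0.692). A gene that missed it is therefore not shown to be unchanged. At an unadjusted p under 0.05 there were 412 higher (3.05%) and 383 lower genes (2.84%), and voom on the recovered fragments called 0 genes at an adjusted p, with 396 higher and 404 lower at an unadjusted p.

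PDK4 and PDK2 are the kinases for which neither control library reached the level of either GAP43 library, so the stretch before the start of each is printed here, from RefSeq on GRCh38.p14. Each shows the 250 bases before a transcript start, 5′ to 3′ on the gene's own strand. For PDK4, on the minus strand, this is chr7:95596517-95596766, and for PDK2, on the plus strand, chr17:50094487-50094736, the first of its 3 RefSeq starts. Capitals mark matches, on either strand, to the CCAAT box or to the GC box GGGCGG.
PDK4: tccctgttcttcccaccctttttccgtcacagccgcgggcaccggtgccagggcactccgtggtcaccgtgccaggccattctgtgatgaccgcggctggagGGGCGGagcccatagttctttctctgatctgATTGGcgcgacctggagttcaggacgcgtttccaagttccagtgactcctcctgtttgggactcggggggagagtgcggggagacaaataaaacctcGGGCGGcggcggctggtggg
PDK2: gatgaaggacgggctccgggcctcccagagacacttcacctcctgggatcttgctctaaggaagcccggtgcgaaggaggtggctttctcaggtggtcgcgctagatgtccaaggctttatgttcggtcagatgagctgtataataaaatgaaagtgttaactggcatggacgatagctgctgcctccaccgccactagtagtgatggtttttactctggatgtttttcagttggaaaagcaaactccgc
The PDK4 window held 1 CCAAT box and 2 GC boxes, and the printed PDK2 window held neither. The windows before the other 2 PDK2 starts differed from it. That at chr17:50095101-50095350 held 3 CCAAT boxes, 3 GC boxes and 1 E-box with 67.6% G and C, and that at chr17:50095445-50095694 held 1 GC box with 64.4% G and C. Of 35116 RefSeq promoters read over the same length, 32.0% held a CCAAT box and 42.6% a GC box. Neither printed window held TATAAA, the E-box CACGTG or the forkhead motif TGTTTAC on either strand, which 10.7%, 6.34% and 2.98% of promoters held. G and C made up 62.8% of the PDK4 window and 51.2% of the printed PDK2 window, beside a median of 58.0% over all promoters.

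PDP1, the catalytic subunit of the main phosphatase, was higher in both GAP43 libraries, and the other phosphatase genes were not set apart in this way. PDP1 (ENSG00000164951, chromosome 8 from 93857807 to 93926066) had 19.0 and 19.6 FPKM in GAP43 cells, against 10.0 and 7.32 FPKM in control cells. The GAP43 libraries were nearly level with each other, while the control libraries were further apart. The group means were 19.3 ± 0.417 FPKM in GAP43 cells and 8.66 ± 1.89 FPKM in control cells (SD, n = 2 each), a ratio of 2.23. These values rest on 2348 and 2143 recovered fragments in GAP43 cells, against 1183 and 793 in control cells. On the log2(FPKM + 1) scale the difference was 1.08, which placed PDP1 as number 92 of the 13507 genes, and it was between 0.88 (without control replicate 2) and 1.29 (without control replicate 1) over the 13 alternatives tried. PDP1 was chosen by this difference, so its rank and this range describe the rise and do not test it. No exon base of PDP1 is shared with another GENCODE gene, and none of its transcripts' 100-base windows occurs in a transcript of another gene.

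PDP2, the other catalytic phosphatase (chromosome 16 from 66878589 to 66895754), had 3.92 and 3.26 FPKM in GAP43 cells, against 3.61 and 4.28 FPKM in control cells. The groups overlapped, with a log2 fold change of -0.11 and a 95% interval from -0.54 to 0.32 (limma, adjusted p = 0.853). PDPR, the regulatory chain that holds PDP1 back (chromosome 16 from 70113626 to 70162537), had 9.14 and 12.9 FPKM in GAP43 cells, against 10.1 and 8.73 FPKM in control cells. Its highest value was in GAP43 replicate 2 and the groups overlapped, with a log2 fold change of 0.19 and an interval from -0.31 to 0.70 (limma, adjusted p = 0.776). Without GAP43 replicate 2 the fold change of PDPR was -0.033. Of the 100-base windows of PDPR transcripts, 28.0% also occur in transcripts of other genes, so its fragments may be split between copies. PDP1 made up 82.9% and 85.7% of the summed PDP1 and PDP2 level in GAP43 cells, against 73.5% and 63.1% in control cells. The sum itself was 22.9 FPKM in both GAP43 libraries, against 13.6 and 11.6 FPKM in control cells.

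**Figure D1:**
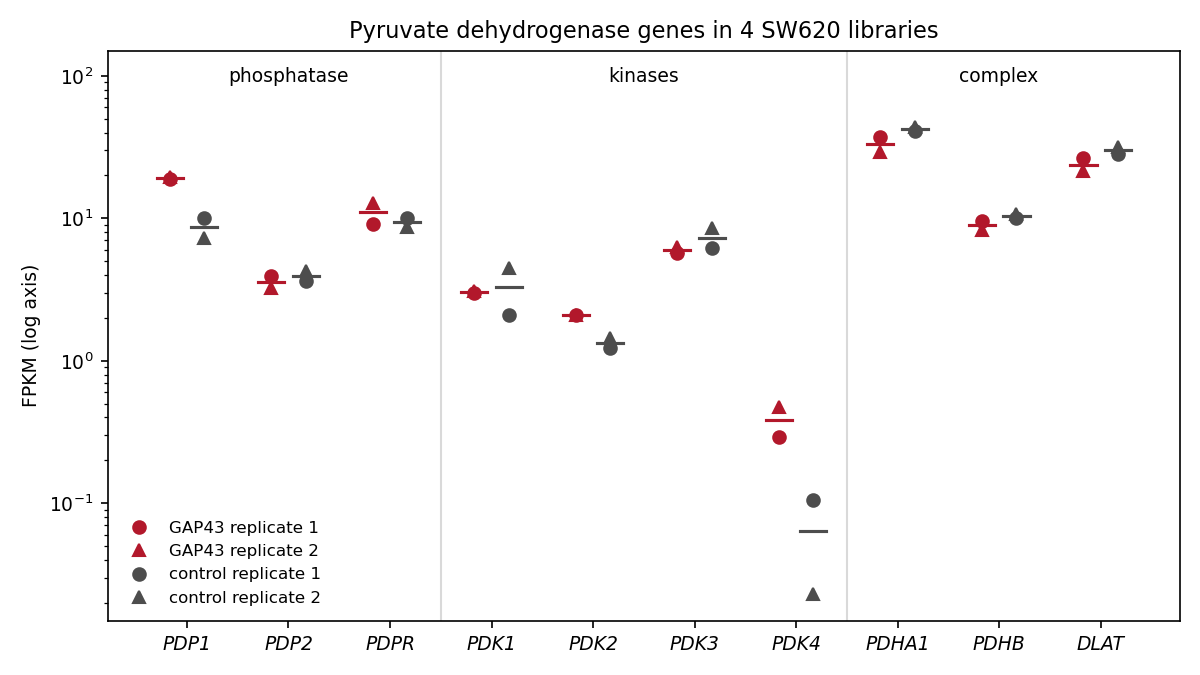
FPKM on a log axis for the 10 genes, with a circle for replicate 1, a triangle for replicate 2 and a bar for the mean of each group (red, GAP43; grey, control; n = 2 each). PDP1, PDK2 and PDK4 show both GAP43 libraries above both control libraries, and PDHA1, PDHB and DLAT show both below.

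Of the 4 kinases, PDK2 and PDK4 had both GAP43 libraries above both controls, and PDK1 and PDK3 overlapped between the groups. None of the 4 passed an adjusted p under 0.05. Both GAP43 libraries lay above both controls for 17.1% of the genes tested, and for 19.6% without the filter that PDK4 missed, so 2 of 4 kinases is a count to be read against that share, as is the total of 3 of 10 members (PDP1 included, which chose the set).

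PDK4, the kinase known to rise with fasting and to be induced by FOXO and PPAR factors, was the lowest of all 10 genes. PDK4 (ENSG00000004799, chromosome 7 from 95583499 to 95596491, minus strand) had 0.291 and 0.476 FPKM in GAP43 cells, against 0.105 and 0.0229 FPKM in control cells. These are 29 and 42 fragments in GAP43 cells, with exact 95% Poisson intervals of 19.4 to 41.6 and 30.3 to 56.8. The control libraries gave 10 and 2 fragments, with intervals of 4.80 to 18.4 and 0.242 to 7.22. Summed over libraries the rate was 5.76 times as high in GAP43 cells, with an exact interval from 3.10 to 11.7 that covers counting error only. PDK4 stood in the study's own list of changed genes from these same libraries, so its p-values and intervals describe its rise and are no separate support. PDK4 did not reach a mean of 1 FPKM, so its test comes from a limma fit without that filter over 31284 genes. There the log2 fold change was 0.38 (standard error 0.10), with an unadjusted p of 0.0205 and an adjusted p of 0.763, in a fit where 3.42% of genes were higher at an unadjusted p under 0.05. The unadjusted p by limma stayed under 0.05 in 9 of 12 alternatives, and was 0.0706 without GAP43 replicate 2, 0.0734 without control replicate 1 and 0.132 without control replicate 2. At so low a level, log2(FPKM + 1) understates the change, and the log2 fold change was 1.58 with a pseudocount of 0.1 FPKM and 2.67 with voom on fragments.

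PDK2, the most widely expressed of the kinases, was higher too, at a level above that of PDK4. PDK2 (chromosome 17 from 50094737 to 50112152) had 2.11 and 2.08 FPKM in GAP43 cells, against 1.23 and 1.44 FPKM in control cells. The ratio of the means was 1.57, on 255 and 223 fragments in GAP43 cells and 142 and 153 in control cells. Its log2 fold change of 0.41 had a 95% interval from -0.076 to 0.89 and did not pass the test (limma, unadjusted p = 0.0850, adjusted p = 0.692). By limma it came under an unadjusted p of 0.05 with voom on fragments (0.71, unadjusted p = 0.0259, adjusted p = 0.691) and with FPKM as a share of its library sum (0.66, unadjusted p = 0.0369, adjusted p = 0.712). With that share brought back to the mean sum, the log2 fold change of PDK2 was 0.48 (limma, unadjusted p = 0.0528, adjusted p = 0.706). Of the exonic bases of PDK2, 38.6% lie in exons of SAMD14 on the opposite strand, and fragments there cannot be assigned without strand. SAMD14 had 0.0646 and 0.204 FPKM in GAP43 cells, against 0.0945 and 0.0221 FPKM in control cells.

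PDK1, the kinase best known as a target of the hypoxia factor HIF1A, did not differ beyond the spread of its controls. PDK1 (chromosome 2 from 172555373 to 172608669) had 2.99 and 3.09 FPKM in GAP43 cells, against 2.08 and 4.49 FPKM in control cells. Both GAP43 libraries fell between the controls, and the log2 fold change was -0.024 with an interval from -0.72 to 0.67 (limma, adjusted p = 0.984). The sign followed the control used, at 0.39 without control replicate 2 and -0.44 without control replicate 1. PDK3, the kinase least sensitive to inhibition by pyruvate, carried the highest level of the 4. It lies on chromosome X from 24465221 to 24539837 and had 5.71 and 6.27 FPKM in GAP43 cells, against 6.15 and 8.49 FPKM in control cells. Its log2 fold change was -0.24 with an interval from -0.71 to 0.23 (limma, adjusted p = 0.728).

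As shares of the summed kinase FPKM, PDK2 made up 19.0% and 17.5% in GAP43 cells, against 12.8% and 10.0% in control cells. PDK4 made up 2.62% and 3.99% in GAP43 cells, against 1.096% and 0.159% in control cells. PDK3 made up 51.4% and 52.6% in GAP43 cells, against 64.3% and 58.8% in control cells. So the groups did not overlap for these 3 shares, while that of PDK1 did overlap, at 26.96% and 25.9% in GAP43 cells and 21.8% and 31.1% in control cells. The shares of a library add up to its whole, so they depend on each other, and the FPKM of PDK3 itself overlapped between the groups. Shares depend on the gene models, since the model of PDK3 used for FPKM has 2695 bases and its exons in GENCODE release 29 cover 4951, whereas that of PDK1 has 14883. The summed kinase level was 11.1 and 11.9 FPKM in GAP43 cells, against 9.57 and 14.4 FPKM in control cells. Over the summed catalytic phosphatases this was 0.484 and 0.522 in GAP43 cells, against 0.703 and 1.24 in control cells. That ratio contains PDP1, and over PDP2 alone the groups overlapped, at 2.83 and 3.66 in GAP43 cells and 2.65 and 3.38 in control cells. An exact 2-sided permutation test of 2 libraries against 2 cannot go below p = 0.333, so no test is given for these ratios. The difference in the mean ratio of kinases to phosphatases was -0.47, with -0.20 without control replicate 2 and -0.74 without control replicate 1.

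**Figure D2:**
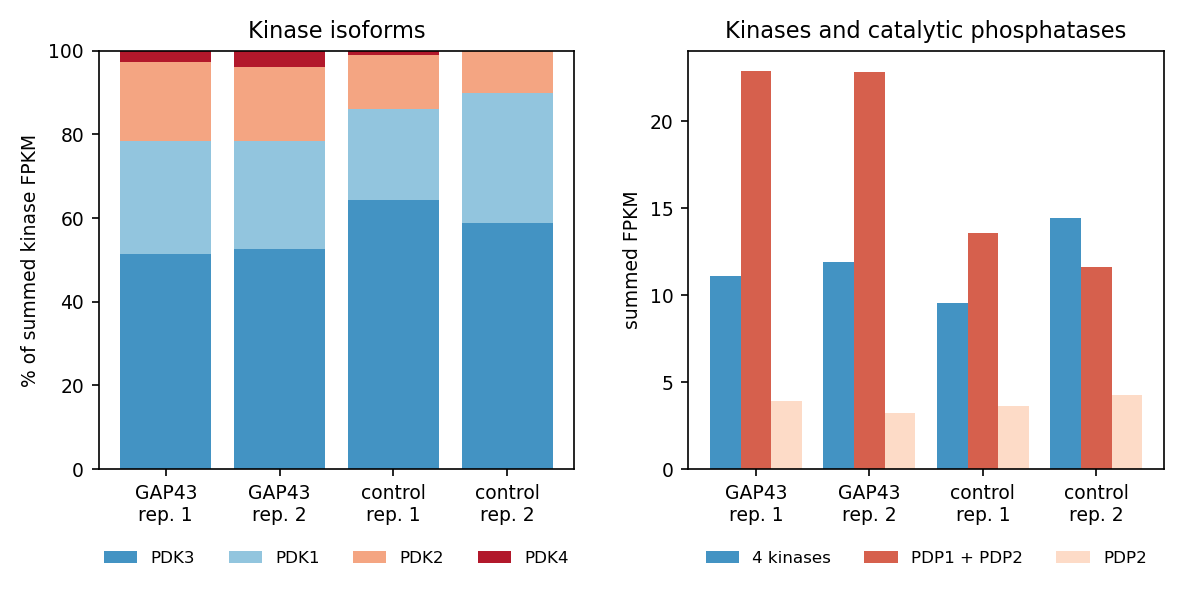
Left, the share of each kinase in the summed kinase FPKM of a library, in percent. Right, the summed FPKM of the 4 kinases, of PDP1 with PDP2, and of PDP2 alone in each library (axis from 0). The PDK2 and PDK4 shares are larger in both GAP43 libraries, and the PDP1 with PDP2 sum is 22.9 FPKM in both, against 13.6 and 11.6 FPKM in control cells.

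PDHA1, DLAT and PDHB, the chains of the first and second enzyme, were lower in both GAP43 libraries, and none of them passed the test. PDHA1, the E1 alpha chain that carries the phosphorylated serines (chromosome X from 19343893 to 19361705), had 37.2 and 29.1 FPKM in GAP43 cells, against 41.3 and 43.4 FPKM in control cells. DLAT, the E2 acetyltransferase that forms the core (chromosome 11 from 112024814 to 112064390), had 26.4 and 21.3 FPKM in GAP43 cells, against 28.3 and 31.7 FPKM in control cells. PDHB, the E1 beta chain (chromosome 3 from 58427630 to 58433857, minus strand), had 9.64 and 8.26 FPKM in GAP43 cells, against 10.0 and 10.8 FPKM in control cells. For each of these genes GAP43 replicate 2 was the lowest of the 4 libraries and GAP43 replicate 1 lay just below the controls. The log2 fold change was -0.35 for PDHA1, with an interval from -0.85 to 0.14 (limma, adjusted p = 0.692). It was -0.32 for DLAT, with an interval from -0.80 to 0.15 (limma, adjusted p = 0.692), and -0.20 for PDHB, with an interval from -0.61 to 0.21 (limma, adjusted p = 0.730). Both GAP43 libraries lay below both controls for 24.1% of all genes tested.

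Against the mean of the controls, PDHA1 differed by -0.18 in GAP43 replicate 1 and -0.52 in GAP43 replicate 2, and DLAT by -0.18 and -0.47. The share of mitochondrially encoded fragments, given above, was also farthest from the controls in GAP43 replicate 2, and its part in the differences of the subunits was not tested. PDHA1 and DLAT kept nearly the same ratio to each other, at 1.41 and 1.37 in GAP43 cells and 1.46 and 1.37 in control cells. PDHA1 over PDHB was 3.85 and 3.53 in GAP43 cells, against 4.11 and 4.02 in control cells. In PDHA1, 21.3% of the exonic bases lie in exons of MAP3K15 on the opposite strand, a gene at 0.472 and 0.313 FPKM in GAP43 cells and 0.476 and 0.446 FPKM in control cells.

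**Figure D3:**
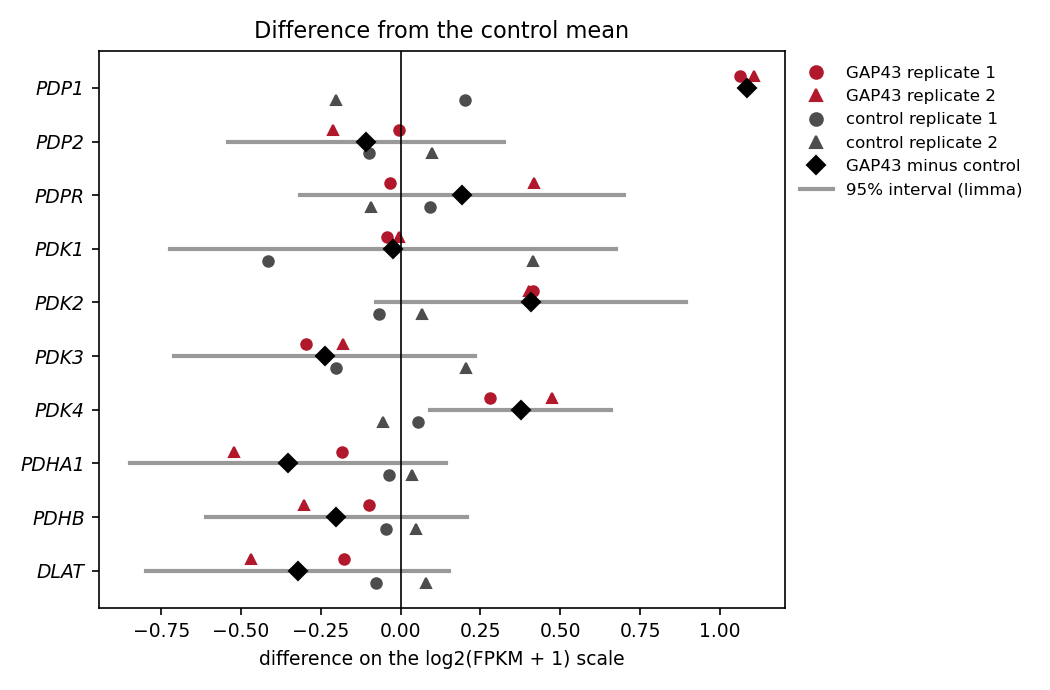
Differences from the control mean on the log2(FPKM + 1) scale, with each library as a point above (GAP43, red) or below (control, grey) a diamond for the difference of the group means. Grey lines are 95% limma intervals, left out for PDP1, whose difference of 1.08 chose the set. Of the intervals drawn, only that of PDK4, from a fit without the filter, does not include 0. PDK4 stood in the study's own list of changed genes, so its interval is no separate support.

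Ordered by mean level in GAP43 cells, PDHA1 at 33.2 FPKM was first, followed by DLAT at 23.9, PDP1 at 19.3, PDPR at 11.0, PDHB at 8.95, PDK3 at 5.99, PDP2 at 3.59, PDK1 at 3.04, PDK2 at 2.10 and PDK4 at 0.384 FPKM. In this order PDPR and PDHB were the only neighbours whose library values overlapped. In control cells the order was PDHA1 at 42.3 FPKM, DLAT at 30.0, PDHB at 10.4, PDPR at 9.40, PDP1 at 8.66, PDK3 at 7.32, PDP2 at 3.94, PDK1 at 3.28, PDK2 at 1.34 and PDK4 at 0.0639 FPKM. Here PDHB overlapped with PDPR, PDPR with PDP1, PDP1 with PDK3, and PDP2 with PDK1. PDP1 was thus above PDPR, PDHB and PDK3 in GAP43 cells, and its range overlapped with those of PDPR and PDK3 in control cells.

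Genes around the complex were read from 5 lists, each described by its counts and its median beside those of all genes tested, whose median log2 fold change was -0.038 and of which 17.1% lay above and 24.1% below both controls. No gene of these lists passed an adjusted p under 0.05. Of the other genes of the complex and of lipoate attachment, 5 were tested and 2 lay below both controls, with a median of -0.13. DLD, the E3 enzyme shared with other dehydrogenases, was the highest of them, with 22.4 and 17.5 FPKM in GAP43 cells, against 24.2 and 26.0 FPKM in control cells. PDHX, which ties DLD to the core and is named here after its values were seen, overlapped between the groups, with 20.3 and 17.3 FPKM in GAP43 cells, against 19.0 and 22.5 FPKM in control cells. Of 16 genes of pyruvate supply and of its other fates, 14 were tested, 0 lay above and 7 below both controls, and the median was -0.33. LDHB, which interconverts lactate and pyruvate and had the highest level there, had 409.9 and 289.7 FPKM in GAP43 cells, against 458.9 and 528.9 FPKM in control cells. Its log2 fold change was -0.51 with an interval from -1.23 to 0.20 (limma, adjusted p = 0.692). As with the subunits, GAP43 replicate 2 was the farther from the controls, with a list median of -0.45 against -0.14 in GAP43 replicate 1.

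The sister complexes for 2-oxoglutarate and branched-chain oxoacids, built on the same plan, with their kinase and phosphatase, had 6 of 9 genes tested, 4 of them below both controls and 0 above, with a median of -0.17. These 4 were OGDH, DLST, BCKDHB and the kinase BCKDK. The median was 0.027 with FPKM as a share of its library sum, -0.061 with that share brought back to the mean sum, and -0.034 without the filter. OGDH, which takes 2-oxoglutarate, was the highest of them, with 31.2 and 30.0 FPKM in GAP43 cells, against 33.0 and 32.2 FPKM in control cells. Its log2 fold change was only -0.088, with an interval from -0.51 to 0.34 (limma, adjusted p = 0.877). PP2C-type phosphatases, the family to which PDP1 and PDP2 belong, had 13 of 17 tested, 4 above and 3 below both controls, with a median of -0.027. The 4 above, named after their values were seen, were PPM1H, which acts on Rab GTPases, PPM1M, PPM1N and PHLPP2, which acts on AKT. PPM1H had 4.65 and 5.01 FPKM in GAP43 cells, against 3.69 and 3.53 FPKM in control cells, a log2 fold change of 0.34 (limma, adjusted p = 0.692). PPM1G, the highest of the family, had 75.6 and 62.9 FPKM in GAP43 cells, against 88.6 and 82.1 FPKM in control cells.

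Of 14 factors known to regulate PDK or PDP genes, 9 were tested, 3 lay above and 2 below both controls, and the median was -0.11. That median did not keep its sign, at 0.24 with FPKM as a share of its library sum (0.12 for all genes), 0.043 without the filter and 0.087 without control replicate 2. Under that share 18934 genes passed the filter, against 13507. With the share brought back to the mean sum, the list median was -0.0050. Without control replicate 1 it was -0.34. FOXO4, a forkhead factor, was the single gene of the 5 lists past an unadjusted p under 0.05. Of all genes tested 3.05% were higher and 2.84% lower at that threshold, so 1 gene over the 5 lists is to be read against those shares. FOXO4 had 3.55 and 3.48 FPKM in GAP43 cells, against 1.97 and 2.00 FPKM in control cells. Its log2 fold change was 0.60 with an interval from 0.18 to 1.01 (limma, unadjusted p = 0.0120, adjusted p = 0.692). FOXO3, of the same family, overlapped between the groups, with 6.65 and 5.26 FPKM in GAP43 cells, against 6.04 and 8.55 FPKM in control cells. FOXO1, below the filter, lay above both controls, with 0.781 and 1.08 FPKM in GAP43 cells, against 0.611 and 0.748 FPKM in control cells. PPARA and NR3C1, below the filter too, and PPARD and RXRA, which were tested, also lay above both controls. Without the filter 19.6% of all genes did so. MYC, the highest of the list, had 79.4 and 93.9 FPKM in GAP43 cells, against 97.9 and 125 FPKM in control cells.

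**Figure D4:**
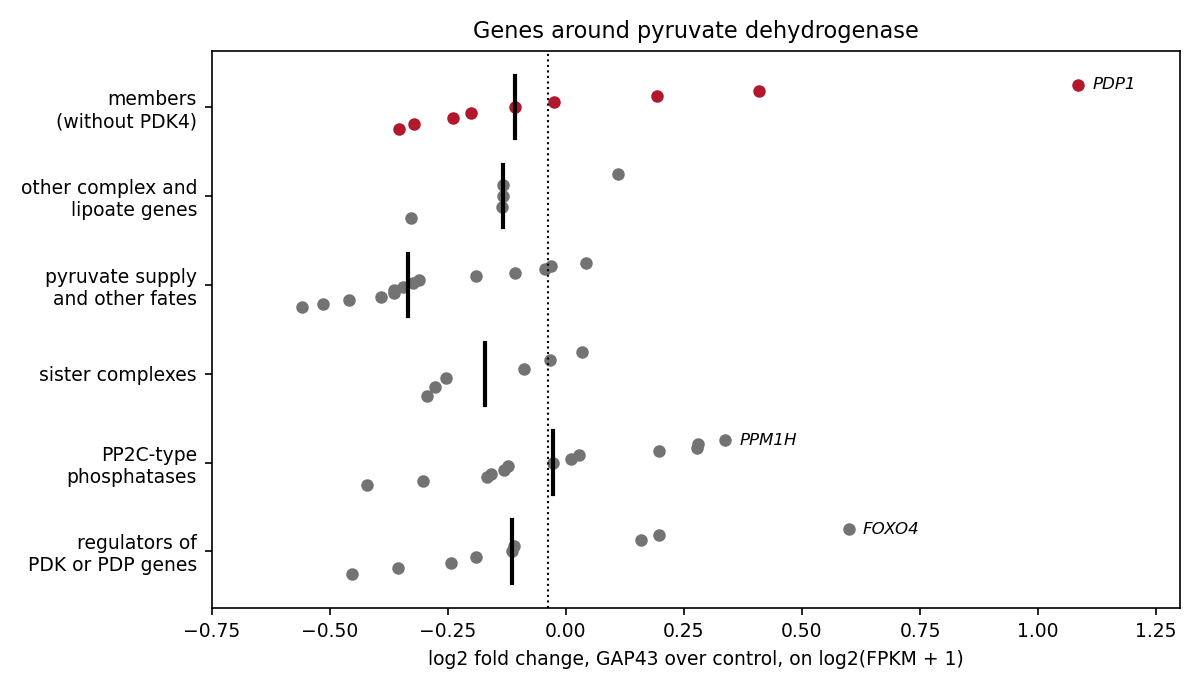
Log2 fold changes, GAP43 over control on log2(FPKM + 1), of the tested genes of each list, with 1 point a gene, a bar at the median of the list and a dotted line at the median of all genes tested (-0.038). PDP1 lies at 1.08, the next highest point is FOXO4 at 0.60, and the list of pyruvate supply and other fates has the lowest median, at -0.33.

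The protein-coding genes whose centred profile over the 4 libraries lay closest to that of PDP1, by the root mean square of their differences in log2(FPKM + 1), were YPEL3 (0.128), TNFAIP2 (0.134), KRT83 (0.139), WBP1 (0.156) and AC090154.1 (0.159). WBP1, which encodes a WW domain binding protein, had 5.54 and 5.15 FPKM in GAP43 cells, against 3.36 and 2.06 FPKM in control cells. With 4 libraries this likeness is a description only.

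Within 500 kb of PDP1 the table holds 17 genes, of which 8 were tested and 3 lay above both controls, as did 17.1% of all genes tested. RBM12B, an RNA-binding protein gene 117 kb before PDP1, had 7.73 and 8.79 FPKM in GAP43 cells, against 6.34 and 5.63 FPKM in control cells, a log2 fold change of 0.41 (limma, unadjusted p = 0.0477, adjusted p = 0.692). It overlaps RBM12B-AS1 on the other strand, at 1.32 and 4.24 FPKM in GAP43 cells, against 1.89 and 1.66 FPKM in control cells. RP11-10N23.2, an antisense RNA gene at 137 kb, had 3.28 and 3.87 FPKM in GAP43 cells, against 2.62 and 1.60 FPKM in control cells, a log2 fold change of 0.57 (limma, unadjusted p = 0.0410, adjusted p = 0.692). It lies inside the span of FAM92A1 on the same strand. FAM92A1 overlapped between the groups, with 4.75 and 4.09 FPKM in GAP43 cells, against 4.13 and 3.23 FPKM in control cells. TMEM67, a ciliary membrane protein gene at 38.6 kb, had 1.79 and 2.46 FPKM in GAP43 cells, against 1.64 and 1.72 FPKM in control cells. On the far side CDH17, an intestinal cadherin gene at 201 kb, had 2.37 and 3.63 FPKM in GAP43 cells, against 3.52 and 6.75 FPKM in control cells. Inside the span of PDP1 but on the other strand, RP3-388N13.5, a lincRNA gene, had 0.526 and 0.486 FPKM in GAP43 cells, against 0.0998 and 0.164 FPKM in control cells. It shares no exon base with PDP1, was the only gene of the table inside that span, and was below the filter (unadjusted p = 0.0118 and adjusted p = 0.763 by limma without it). In that fit 3.42% of genes were higher at an unadjusted p under 0.05. Its values rest on only 11 and 9 fragments in GAP43 cells, against 2 and 3 in control cells. With no strand setting stated, these cannot be assigned to a strand. Antisense RNA genes as a class lay at a median of 0.075 and 0.36 above the control mean in GAP43 replicates 1 and 2, and lincRNA genes at 0.091 and 0.30. The part of these shifts in the values of the antisense and lincRNA neighbours was not tested.

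**Figure D5:**
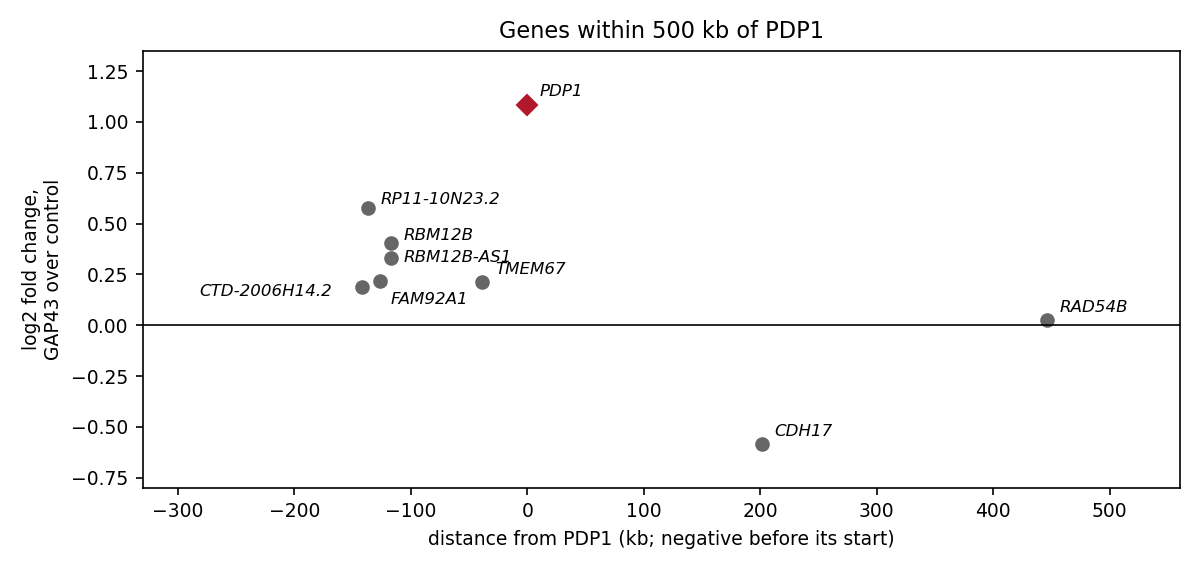
Log2 fold change, GAP43 over control on log2(FPKM + 1), of PDP1 (diamond) and of the 8 tested genes within 500 kb (circles), by distance from PDP1 in kb. PDP1 stands at 1.08 and its tested neighbours lie between -0.58 (CDH17) and 0.57 (RP11-10N23.2).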

How the data were processed

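Poly(A) RNA of 4 SW620 libraries was primed with random hexamers and sequenced as paired ends, and the authors deposited FPKM values per gene and library. The submitters' processing notes give hg19 as the build and name Cuffdiff, Cufflinks 1.1 and TopHat2 2.0.13, with no strand setting for the counting. The gene starts nevertheless matched GENCODE release 29 on GRCh38 for 96.4% of the 33057 IDs found there (of 33845), so positions are on that build. FPKM times gene length, divided by the smallest such value of the library, gave whole fragments (within 0.01) for 100% of values above 0, 17473071 to 21883137 per library. The library size implied by the FPKM values differed from this sum, most in GAP43 replicate 2. Intervals on fragments cover counting error only, since PCR copies were not marked by molecular identifiers.

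Genes averaging 1 FPKM or more were compared as log2(FPKM + 1) with limma 3.58.1 in R 4.3.3 (trended prior variance, 2-sided, Benjamini-Hochberg over all 13507 genes), and 9 of the 10 members passed this filter. Members and gene lists were chosen with earlier results of these data known. Genes named are the members, in each list the highest gene and those past an unadjusted p under 0.05, the 5 genes of profile most like PDP1, GAP43, neighbours or overlapping genes and cell type markers. PDHX, PPM1H, PPM1M, PPM1N, PHLPP2, DLST, BCKDHB, BCKDK, FOXO1, FOXO3, PPARA, NR3C1, PPARD and RXRA were named after their values were seen. PDHA2, COL1A2 and FAP were not analysed here. Alternatives were a pseudocount of 0.1, no filter, other scalings, a constant prior variance, a replicate block, voom on recovered fragments and leaving out each library. Motifs were counted over 35116 RefSeq promoters with Python 3.11.15.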

Additional observations from a re-analysis of the deposited data

How the results depend on the processing

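By limma, genes past an adjusted p numbered 0, but 152 with the replicate block, and 0 to 15 when 1 library was left out (15 without control replicate 1). At an unadjusted p, the 412 genes higher and 383 lower of 13507 became 1070 and 676 of 31284 without the filter. Such genes numbered 655 higher with the replicate block, and 874 higher of 18934 with FPKM as a share of its library sum. They ranged from 270 to 1565 higher and from 77 to 2513 lower when 1 library was left out. Both highest numbers came without GAP43 replicate 1 and both lowest without control replicate 2, and 231 were lower without control replicate 1. A single library left in a group was taken to be as variable as the other group. Chosen after seeing the data, this share brought back to the mean library sum gave 214 lower genes. The replicate numbers are not stated to pair the samples, and the deviations of same-numbered libraries had a correlation of -0.16 across genes. With crossed numbers, also chosen after seeing the data, 668 genes were higher and 737 lower. The share of the library sum moved the median of all genes tested to 0.12 over 18934 genes, against -0.038 over 13507. Brought back to the mean sum, it gave 0.060 over 13543 genes. PDK1 reversed to 0.10 and 0.067 under these scalings and to 0.051 with voom, and ranged from -0.44 to 0.39 when 1 library was left out. PDPR ranged from -0.033 (without GAP43 replicate 2) to 0.42. The cause was not tested. No other member changed sign under any alternative, and apart from PDP1, which is not tested here, none passed an adjusted p by limma under any of them.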
